A study of Mus musculus with 32 samples.

Results

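Mitogen-activated protein kinase (MAPK) cascades pass a signal from the cell surface through kinases that phosphorylate each other in turn, and the genes described here encode the tiers of these cascades. They were chosen by name alone: every gene on the array whose symbol is Mapk followed by a number, or begins with Map2k, Map3k, Map4k or Mapkapk and a number. The rule found 46 of the 24082 gene symbols on the array. Of these, 43 passed the filter on dim probes and were tested, and they comprised 5 of 5 MAP4K genes, 15 of 16 MAP3K genes, 7 of 7 MAP2K genes, 12 of 13 MAPK genes and 3 of 3 MAPKAPK genes, with Map2k3os, which carries the name of Map2k3 but is not a kinase gene, as the remaining one. Not tested were Map3k19, Mapk10 and Map3k7cl, whose brightest probes were well above background on 1, 2 and 3 of the 32 arrays. Map3k7cl, like Map2k3os, was matched by its symbol without being a cascade kinase. Kinases of these tiers under other symbols, such as the MAP3K Zak, were outside the rule.

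Bone marrow-derived macrophages, grown from bone marrow with M-CSF, were of wild-type (WT, C57BL/6J) or Ifnar1-/- genotype, the latter without one chain of the receptor for type I interferon. Cells of each genotype were left untreated or received zVAD, LPS, LPS+zVAD, LPS+zVAD+Nec-1, IFNβ, IFNβ+zVAD or IFNβ+zVAD+Nec-1 for 6 h, which gave 16 groups of 2 arrays. LPS is a bacterial ligand of TLR4, IFNβ is a type I interferon, zVAD blocks caspases, and Nec-1 blocks the kinase activity of RipK1. LPS with zVAD and IFNβ with zVAD were the authors' stimuli for necroptosis, a lytic cell death that needs RipK1 and RipK3. Nec-1 was given only on top of these stimuli. A loss of RipK1 activity and other effects of the compound therefore cannot be told apart. The labels do not say that the 2 arrays of a group came from separate cultures or animals, and p-values therefore measure only the spread between these arrays. In RNA from a whole culture, fewer cells of a type and less RNA per cell cannot be told apart.

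In the cascades, MAP4K enzymes and other upstream kinases act on MAP3K enzymes, these phosphorylate MAP2K enzymes, and MAP2K enzymes phosphorylate MAPKs. Map2k1 and Map2k2 (MEK1 and MEK2) act in the ERK branch, with Mapk3 (ERK1), Map2k3 and Map2k6 serve the p38 proteins encoded by Mapk11 to Mapk14, Map2k4 and Map2k7 serve the JNK proteins Mapk8 to Mapk10, and Map2k5 serves ERK5 (Mapk7). In macrophages, TLR4 reaches these cascades through TAK1 (Map3k7) and TPL2 (Map3k8), and p38 activates MK2 (Mapkapk2), which keeps cytokine mRNAs stable and translated. The array measured mRNA, not phosphorylation, so all values below are levels of transcript.

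All 8 macrophage markers examined were well above background on all 32 arrays. Markers of other cells were not absent: of 5 neutrophil, 4 dendritic cell, 4 T cell, 3 B cell and 4 fibroblast markers, 4, 1, 2, 1 and 3 were above background on all arrays, and Pdgfra on none. The part of other cells in the results was not tested. The arrays lay on 4 slides, each with 1 genotype, 1 replicate number and all 8 treatments in the same order of position, so treatment and slide position cannot be told apart, nor can a level difference between genotypes and a slide difference. The WT slides were scanned on 2 days and the Ifnar1-/- slides on 1 day. Treatment changes were taken on the same slides within each genotype, and differences of those changes cancel the slide as well. Between 54.9% and 78.1% of probes were well above background on WT arrays and between 44.5% and 61.6% on Ifnar1-/- arrays. Of 3 Ifnar1 probes, one lay at log2 intensity 7.88 to 10.23 in WT and 5.82 to 7.35 in Ifnar1-/- cells and a further one at 9.94 to 11.88 and 7.29 to 8.73. The third overlapped between genotypes (9.02 to 14.76 and 11.16 to 12.44), and whether any of the 3 probes lies in the deleted part is not given in the sources used here. The 2 Ifnar1-/- arrays with LPS+zVAD+Nec-1 stood apart from each other: 10 of 42 members differed between them by more than 1 log2 unit, up to 4.06 for Map2k6, and no count of calls below compares this group, although it is drawn in 2 of the plots and enters the shared estimate of the spread.

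Values are quantile-normalised log2 intensities of the brightest probe of each gene, on which a difference of 1 is a 2-fold change. Since probes differ in brightness, levels are compared between groups for a gene and not between genes. A gene was called changed at a limma adjusted p under 0.05, with the adjustment over all genes tested. Over 14 comparisons fitted without the slide as a block, 34 of the 43 genes were called in at least 1, and 9 in none: Map3k13, Map3k15, Map3k2, Map3k7, Mapk12, Mapk13, Mapk4, Mapk8 and Mapkapk5. The share of all genes called in at least 1 was not counted, and a single comparison called up to 41.2% of them. The count of 34 is therefore not read as a result about the members. With the block, 4 of the 9 were called in at least 1 (Map3k13, Map3k15, Map3k2 and Mapkapk5). TAK1 (Map3k7), the MAP3K that links TLR4 to JNK, p38 and NF-κB, stayed between 11.90 and 12.66 over all 32 arrays, and its largest log2 difference over the 14 comparisons was 0.39. Mapkapk5 (MK5) stayed between 12.57 and 13.33, with 0.29 as its largest difference. Mapk8 (JNK1) lay between 5.37 and 6.61, and Mapk12 (p38γ), at 2.35 to 5.62, was near background. Map3k2 (MEKK2) reached 1.49 as the difference between genotypes in the LPS+zVAD change, which passed only with the block (limma adjusted p = 0.00582). In WT LPS+zVAD against untreated cells, a comparison outside the 14, Map3k2 fell by 1.86 and was called without the block too. The heat map of group means by tier shows this range.

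**Figure D1:**
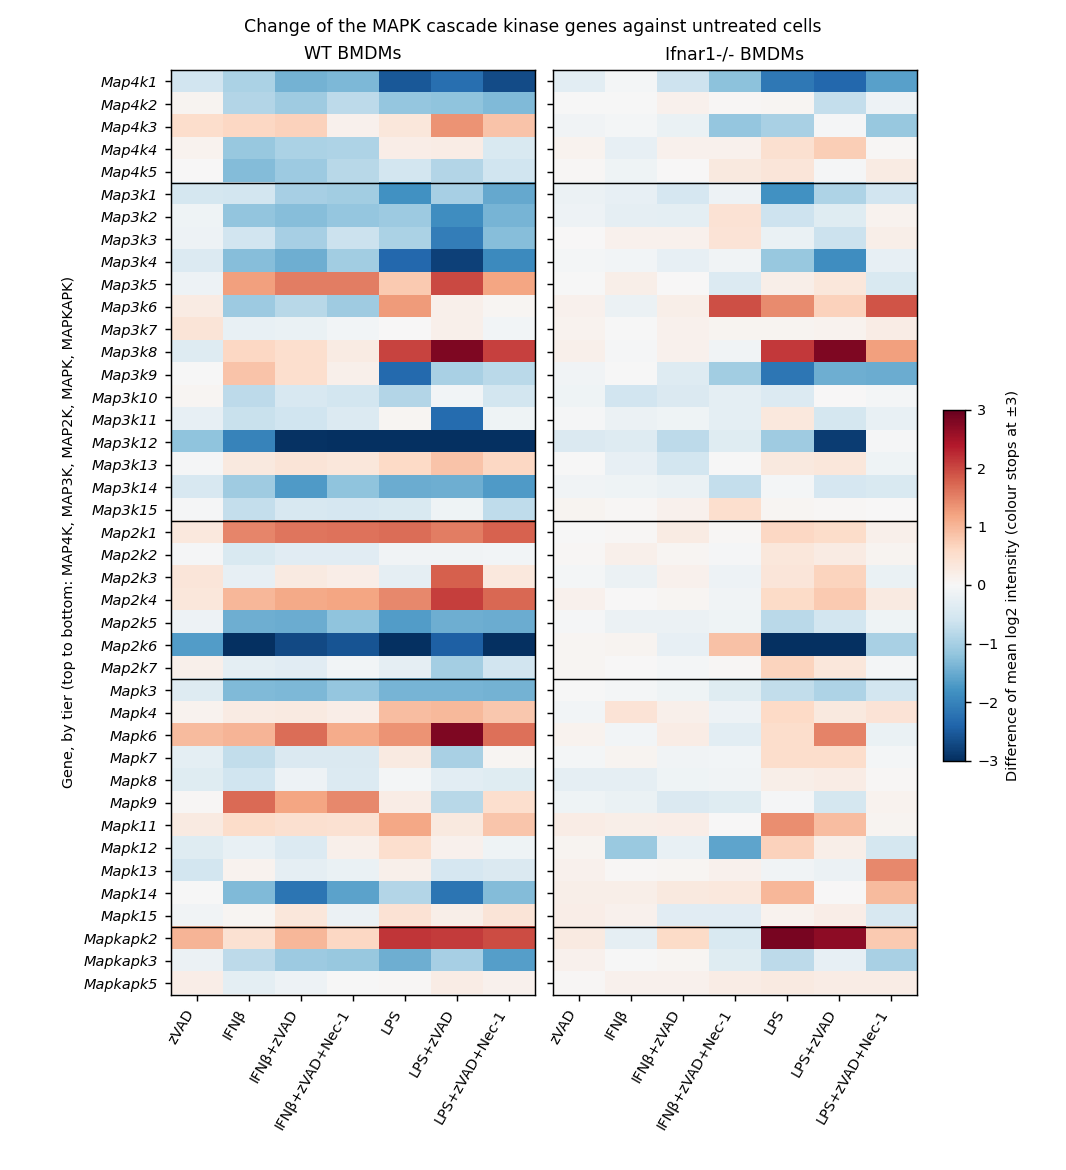
Mean log2 intensity of each of 41 tested kinases in each treated group minus the untreated mean of the same genotype, with genes in rows by tier and treatments in columns for WT and Ifnar1-/- macrophages (n = 2 arrays a group). Red is higher and blue lower, colours stop at ±3, and the Ifnar1-/- LPS+zVAD+Nec-1 column averages 2 arrays that disagree. With IFNβ the WT columns are coloured and the Ifnar1-/- column is nearly blank, and Map3k7 is pale throughout.

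IFNβ addressed which kinase genes answer type I interferon alone. In WT macrophages 21 of 43 genes were called, 5 higher and 16 lower, where 35.3% of all genes tested were called, and the median log2 change was -0.50 over the members and -0.17 over all genes. In Ifnar1-/- macrophages none was called, as none of all genes was (0%), by limma. At an unadjusted p under 0.05, 0 members passed there, and the count of calls was 0 under every alternative setting run. The genes that rose in WT cells were Mapk9 (JNK2), Map2k1 (MEK1), Map3k5 (ASK1, a stress-responsive MAP3K), Mapk6 (ERK3, an atypical MAPK) and Map2k4 (MKK4). The promoters of Mapk14, Map2k1 and Mapk9 are printed from 250 bases before to 50 after the start of transcription, from RefSeq on GRCm38.p6, because Mapk9 and Map2k1 showed the largest IFNβ rises and Mapk14 (p38α) was the only gene called with IFNβ whose promoter held a match to the core of the interferon-stimulated response element (ISRE). Capitals mark that match.
Mapk14, chr17:28692318-28692617, plus strand: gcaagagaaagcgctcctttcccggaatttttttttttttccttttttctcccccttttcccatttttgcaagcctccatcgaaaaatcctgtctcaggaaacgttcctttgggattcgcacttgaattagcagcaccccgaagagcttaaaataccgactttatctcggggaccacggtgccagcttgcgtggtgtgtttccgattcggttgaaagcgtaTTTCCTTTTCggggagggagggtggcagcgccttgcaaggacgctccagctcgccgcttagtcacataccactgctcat
Map2k1, chr9:64253556-64253855, minus strand: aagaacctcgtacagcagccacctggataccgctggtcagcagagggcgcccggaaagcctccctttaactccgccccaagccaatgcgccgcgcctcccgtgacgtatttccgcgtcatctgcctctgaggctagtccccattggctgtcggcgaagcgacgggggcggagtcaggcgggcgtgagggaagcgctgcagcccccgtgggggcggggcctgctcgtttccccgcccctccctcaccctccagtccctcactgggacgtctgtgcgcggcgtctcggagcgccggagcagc
Mapk9, chr11:49846501-49846800, plus strand: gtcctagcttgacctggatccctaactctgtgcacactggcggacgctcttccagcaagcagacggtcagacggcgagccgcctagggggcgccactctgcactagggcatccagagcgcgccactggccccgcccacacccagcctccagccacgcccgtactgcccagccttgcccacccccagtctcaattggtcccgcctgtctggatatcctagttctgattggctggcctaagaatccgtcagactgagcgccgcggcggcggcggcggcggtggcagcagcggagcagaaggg
The ISRE core was searched on both strands as GAAA, any 2 bases and GAAA, and the Mapk14 match lies on the minus strand and begins at base -29. Promoters were matched by symbol for 36 of the 46 members (48 promoters). The ISRE core was in 3 of the 48 (Mapk10, Mapk14 and Mapkapk3) against 3.443% of 32851 promoters. The NF-κB core GGGA, any base and TTTCC was in 1 (Map3k7), against 0.4109%. A loose AP-1 pattern, TGA, any base and TCA, was in 3 (Map2k6, Map2k7 and Map3k10), against 7.808%. The matched letters were TGAGTCA in Map3k10 and TGATTCA in Map2k6 and Map2k7. A match is a description of these letters and not of a bound site.

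Mapk9 stood at 11.17 and 11.33 on the untreated WT arrays and 12.91 and 12.97 with IFNβ. In Ifnar1-/- cells the same groups were 11.25 and 11.26 untreated and 10.99 and 11.14 with IFNβ. The IFNβ arrays of WT cells were the highest of the 8 and did not overlap with the others. Mapk9 rose by 1.69 (SE 0.24, limma adjusted p = 2.05e-05), and the difference between genotypes in this change was -1.88 (adjusted p = 0.000627). Its probe lies on chromosome 11 at 49699496 to 49699555 of mm9, the build of the array files, and a further probe of the gene moved the same way. With LPS its change in WT cells was 0.23 (adjusted p = 0.491).

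Map2k1, the ERK-activating MEK1, was 12.92 and 13.07 untreated and 14.44 and 14.47 with IFNβ in WT cells. In Ifnar1-/- cells it was 13.22 and 13.27 untreated and 13.23 and 13.32 with IFNβ, so that the WT IFNβ arrays lay above all others. It rose by 1.47 (SE 0.16, limma adjusted p = 1.53e-06), and the genotypes differed by -1.43 in this change (adjusted p = 0.000258). Map2k1 is on chromosome 9, with its probe at 64034232 to 64034291 of mm9. Mapk6 (1.01), Map2k4 (1.01) and Map3k5 (1.23) also rose, but the lower-intensity Map3k5 probe went the other way, to -0.49. Of the genes called with IFNβ in WT cells, 12 had other retained probes. Of these 15 probes, 14 moved the same way as the reported probe, and 8 were also called.

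Among the 5 MAP4K genes matched by name, 4 fell with IFNβ and none rose, where 21.6% of all genes were called lower. Map4k5 fell by 1.31, Map4k4 by 1.15, Map4k1 (HPK1, a kinase of blood cells) by 0.96 and Map4k2 by 0.88. In the MAP3K tier 5 of 15 fell, among them Map3k4 (-1.28) and Map3k14 (NIK, of the non-canonical NF-κB pathway, -1.08). Map3k12 fell by 2.0 but is near background. Map2k5 fell by 1.46, Mapk3 (ERK1) by 1.31, and Mapk14 by 1.32 (SE 0.40, limma adjusted p = 0.015). Mapk14 was 14.54 and 14.70 untreated and 12.79 and 13.81 with IFNβ in WT cells, and both IFNβ arrays were lower than the untreated ones but well apart from each other. Mapk3 was 14.73 and 14.91 untreated and 13.57 and 13.45 with IFNβ in WT cells, with close agreement of the arrays, and 15.08 and 15.40 against 15.04 and 15.34 in Ifnar1-/- cells. Map2k5, the MEK5 that activates ERK5, was 13.68 and 13.59 untreated and 12.31 and 12.04 with IFNβ in WT cells. Smaller falls were those of Mapk7 (-0.73), Map3k11 (-0.66), Map3k3 (-0.57) and Map2k2 (-0.45, lost in 9 of 13 alternatives), and Map2k6, near background, was -3.08.

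The difference between genotypes in the IFNβ change, a comparison added after the values were seen, was called for 6 genes, where 18.8% of all genes were called: Map2k5 (1.29), Mapk3 (1.26) and Map4k5 (1.19), which fell in WT cells, and Mapk9, Map2k1 and Mapk6 (-1.10), which rose there. With the slide as a block, 18 members were called, where 33.8% of all genes were. With only the arrays compared in the fit, the WT IFNβ count was 9, where 4065 of 16037 genes were called. Without the untreated WT array of replicate 2, the WT IFNβ count was 7 in place of 21, and it was 11 without the WT IFNβ array of replicate 1. With a 75th-percentile scaling in place of the quantile one, the split was 5 higher and 8 lower, and the difference between genotypes was called for 2 genes without the untreated Ifnar1-/- array of replicate 1.

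**Figure D2:**
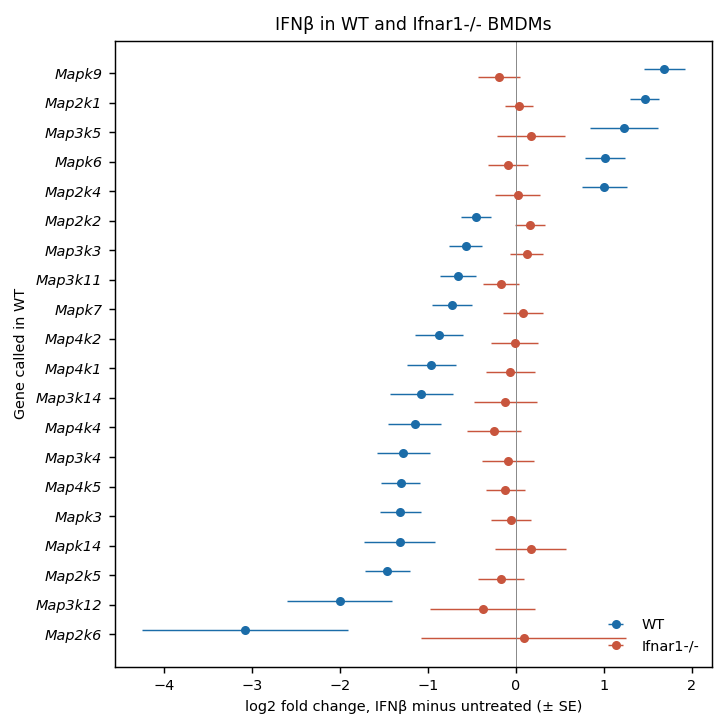
Log2 fold change with IFNβ against untreated cells (x axis, limma estimate ± SE, n = 2 arrays a group) for 20 of the 21 genes called in WT macrophages (y axis), in WT (blue) and Ifnar1-/- cells (red). The genes were chosen for their WT value; the Ifnar1-/- points lie near 0, and none was called.

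LPS addressed the response to TLR4. In WT cells 20 of 43 genes were called, 7 higher and 13 lower, where 41.2% of all genes were called. The median change was -0.09 for the members and -0.08 for all genes. In Ifnar1-/- cells 13 were called, 5 higher and 8 lower, where 24.8% of all genes were called. Of these, 12 were called in both genotypes and in the same direction, which is 60% of the WT list and 92.3% of the Ifnar1-/- list. They were Map2k1, Map2k5, Map2k6, Map3k1, Map3k4, Map3k6, Map3k8, Map3k9, Map4k1, Mapk11, Mapk3 and Mapkapk2. The overlap over all genes was not counted, so these shares are not read as a trait of the kinases. Both counts use a shared estimate of the spread, while the 2 LPS arrays differed by a median of 0.38 in WT and 0.21 in Ifnar1-/- cells. With only the arrays compared, 5 rose and 9 fell in WT cells, where 4440 of 16037 genes were called. In Ifnar1-/- cells 5 rose and 10 fell in that fit, where 4801 were called, so the larger WT count did not hold.

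The largest rise in either genotype was that of Mapkapk2, which encodes MK2, the kinase p38 acts on to stabilise cytokine mRNAs. It was 13.68 and 13.73 untreated and 16.10 and 15.58 with LPS in WT cells, and 13.12 and 13.26 against 16.02 and 16.08 in Ifnar1-/- cells. In both genotypes every LPS array was above every untreated one. Mapkapk2 rose by 2.13 (SE 0.48, limma adjusted p = 0.00153) in WT and 2.86 (SE 0.48, adjusted p = 0.000363) in Ifnar1-/- cells, and the difference, 0.72, did not pass the test (adjusted p = 0.669). Its probe lies on chromosome 1 at 132950692 to 132950751 of mm9. Mapkapk3 fell in WT cells by 1.46, but its other probe showed -0.01. Mapkapk5 moved little.

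Map3k8, the TPL2 kinase through which TLR4 activates ERK, was 10.93 and 11.11 untreated and 13.36 and 12.72 with LPS in WT cells. In Ifnar1-/- cells it was 9.48 and 10.13 untreated and 11.76 and 12.09 with LPS. The changes were 2.02 (SE 0.48, limma adjusted p = 0.00216) and 2.13 (SE 0.48, adjusted p = 0.00295). Map3k6 (ASK2) rose by 1.28 in WT and 1.41 in Ifnar1-/- cells.

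Most MAP3K genes that were called fell. Map3k4 (MEKK4) was 12.62 and 12.70 untreated and 9.89 and 10.73 with LPS in WT cells, and 12.41 and 12.64 against 11.38 and 11.38 in Ifnar1-/- cells. Every LPS array was below every untreated one, and the changes were -2.35 and -1.14, whose difference of 1.21 did not pass the test (adjusted p = 0.0992) except with the slide as a block (adjusted p = 0.0271). Map3k9 (MLK1) fell by 2.32 and 2.17 and Map3k1 (MEKK1) by 1.81 in both genotypes. Map3k14 (-1.49), Map3k3 (MEKK3, -0.96) and Map3k10 (MLK2, -0.88, lost in 8 of 11 alternatives) fell in WT cells. Map3k12 (DLK) was below background with LPS in WT cells. With LPS values under the dimmest probe called above background on each array raised to that probe, its fall was 6.97-fold. Some brighter probes were not above background, so this is not a strict lower bound.

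The MAP4K genes that passed also fell. Map4k1 was 10.61 and 11.10 untreated and 8.01 and 8.62 with LPS in WT cells, and 12.15 and 11.98 against 10.04 and 9.79 in Ifnar1-/- cells, with no overlap in either genotype. It fell by 2.54 (SE 0.28, limma adjusted p = 1.41e-06) in WT and 2.15 in Ifnar1-/- cells. Map4k2 fell by 1.16 in WT cells and Map4k3 by 0.97 in Ifnar1-/- cells.

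Among the MAP2K genes, Map2k1 was called higher in both genotypes, at 14.67 and 14.64 with LPS in WT cells and 13.70 and 14.01 in Ifnar1-/- cells. It rose by 1.67 (SE 0.16, limma adjusted p = 5.07e-07) in WT and 0.62 (SE 0.16, adjusted p = 0.0094) in Ifnar1-/- cells. Map2k1 was the member whose LPS change differed between genotypes, by -1.05 (SE 0.23, adjusted p = 0.00876), where 6.63% of all genes were called; no other passed. With the slide as a block 11 members passed, where 16.8% of all genes did, and the count was 0 without the Ifnar1-/- LPS array of replicate 1 and 7 without the WT LPS array of replicate 2. Map2k4 (MKK4) rose by 1.44 in WT cells. Map2k5 (MEK5) fell by 1.68 and 0.81, though in Ifnar1-/- cells its other probe showed 0.01. Map2k6 (MKK6) was 7.51 and 7.43 untreated and 3.09 and 5.48 with LPS in WT cells, a fall by 3.19 near background. In Ifnar1-/- cells Map2k6 was below background with LPS. With values under the dimmest probe called above background raised to that probe, its fall there was 9.22-fold, which is not a strict lower bound.

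In the MAPK tier Mapk11 (p38β) rose by 1.16 in WT and 1.41 in Ifnar1-/- cells, and Mapk6 rose by 1.34 in WT cells. Mapk3 (ERK1) was 14.73 and 14.91 untreated and 13.44 and 13.42 with LPS in WT cells, against 15.08 and 15.40, and 14.39 and 14.60, in Ifnar1-/- cells. It fell by 1.39 and by 0.75. Without 1 array at a time the number of genes called ranged from 15 to 21 in WT cells and from 7 to 8 in Ifnar1-/- cells, where leaving out any of the 4 untreated and LPS arrays lowered it by over 1.5 times. With a 75th-percentile scaling the Ifnar1-/- split was 6 higher and 4 lower in place of 5 and 8, where 3499 of 16037 genes were called.

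**Figure D3:**
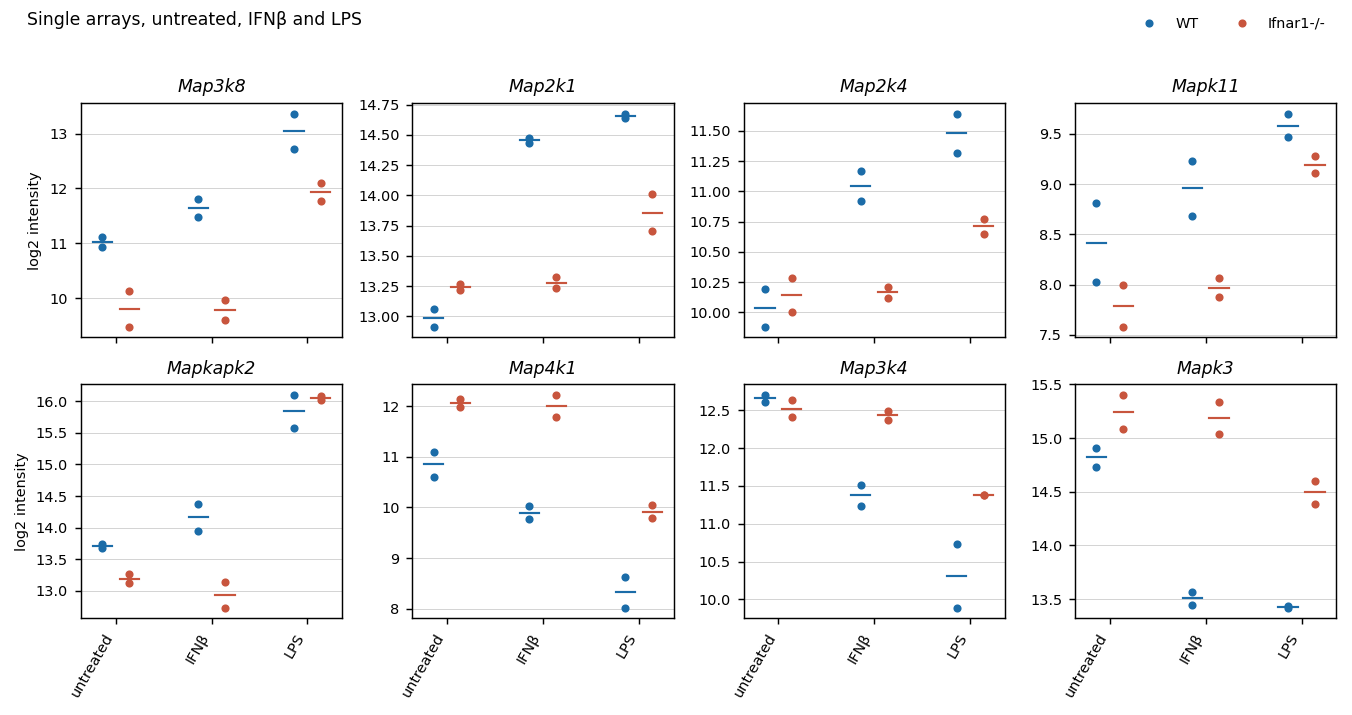
Log2 intensity (y axis, own range in each panel) on each array (points) and the mean of each group (lines, n = 2 arrays) in untreated, IFNβ and LPS cells of WT (blue) and Ifnar1-/- (red) genotype for 8 genes. Mapkapk2 lies at 15.58 to 16.10 with LPS in both genotypes and at 12.73 to 14.38 with IFNβ, whereas Map2k1 lies at 14.44 to 14.67 with either stimulus in WT cells and at or below 14.01 in Ifnar1-/- cells.

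zVAD without a second stimulus addressed whether caspase inhibition moved these genes by itself, and zVAD with IFNβ was a necroptosis stimulus. In WT cells zVAD alone called 0 of 43 members by limma, where 0.00624% of all genes were called, and 4 passed at an unadjusted p under 0.05. IFNβ+zVAD against IFNβ called 0 members where 0% of all genes were called (5 unadjusted), and adding Nec-1 to IFNβ+zVAD called 0 where 0% were (1 unadjusted). The count was 0 in each under every other setting run that could give one. Mapkapk2 had a zVAD value of 1.02 (SE 0.48, adjusted p = 0.885), so a change of this size could not be told from the spread.

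Adding zVAD to LPS gave the other necroptosis stimulus. Against LPS alone 12 of 43 members were called in WT cells, 6 higher and 6 lower, where 34.6% of all genes were called. The largest rise was Map2k3 (MKK3, which activates p38) and the largest fall Map3k11 (MLK3, which acts toward JNK). Each also changed with Nec-1, in the opposite direction. The other genes that rose were Mapk6, Map2k3os, Map3k9, Map3k5 and Map4k3, and the others that fell were Mapk14, Mapk7, Map3k3, Mapk9 and Mapk11.

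Map2k3 was 11.49 and 11.27 untreated, 11.31 and 10.94 with LPS, and 13.11 and 13.26 with LPS+zVAD in WT cells. With Nec-1 added it was 11.73 and 11.65, and with zVAD alone 11.78 and 11.71. Both LPS+zVAD arrays lay above the arrays of the other groups named. It rose by 2.06 from LPS (SE 0.15, limma adjusted p = 4.28e-08) and fell by 1.5 with Nec-1 (SE 0.15, adjusted p = 1.96e-06). Its probe lies on chromosome 11 at 60765712 to 60765771 of mm9. Map2k3os, on the same chromosome, rose by 1.38.

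Map3k11 was 11.97 and 11.98 with LPS, 9.93 and 9.29 with LPS+zVAD, and 11.86 and 11.74 with LPS+zVAD+Nec-1. The LPS+zVAD arrays were the lowest, and the arrays with Nec-1 lay close to those with LPS. Map3k11 fell by 2.37 (SE 0.21, limma adjusted p = 2.04e-07) and rose by 2.19 with Nec-1 (SE 0.21, adjusted p = 1e-06). Its probe is on chromosome 19 at 5702495 to 5702554. These comparisons share the LPS+zVAD arrays, so a value high or low on those arrays enters both, with opposite sign.

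Nec-1 called 7 members, 5 higher and 2 lower, where 28.5% of all genes were called. Besides Map3k11 and Map2k3, Mapk9 rose by 1.35, Mapk7 by 1.04, Map3k4 by 0.90 and Map3k3 by 0.79, and Mapk6 fell by 1.14. With the slide as a block 14 were called, where 42.3% of all genes were. With only the arrays compared in the fit, 0 were called for Nec-1, where 0 of 16037 genes were. For zVAD added to LPS, 3 were called in that fit, where 1719 of 16037 genes were. Mapk7 (ERK5) was 13.16 and 13.62 with LPS, 12.24 and 12.02 with LPS+zVAD and 12.98 and 13.37 with Nec-1, and Map3k3 was 9.45 and 9.78, 8.79 and 8.22, and 9.32 and 9.26 in the same groups. For both the LPS+zVAD arrays were the lowest, and with zVAD Mapk7 fell by 1.26 and Map3k3 by 1.11. Mapk9 was 11.40 and 11.54 with LPS, 10.56 and 10.25 with LPS+zVAD and 11.58 and 11.93 with Nec-1, a fall by 1.07 with zVAD. For Mapk6, which was 13.67 and 13.38 with LPS, 14.972 and 14.996 with LPS+zVAD and 13.80 and 13.89 with Nec-1, the changes were 1.46 and -1.14, and 3 probes of the gene moved the same way. Mapk14 was 13.55 and 13.96 with LPS, 12.94 and 11.90 with LPS+zVAD and 13.52 and 13.12 with Nec-1. It fell by 1.33 with zVAD (SE 0.40, adjusted p = 0.014), and its Nec-1 value did not pass. Map3k5 rose by 1.2, but its other probe showed -0.83. Without the WT LPS+zVAD array of replicate 2, 7 of the 12 zVAD calls were made.

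**Figure D4:**
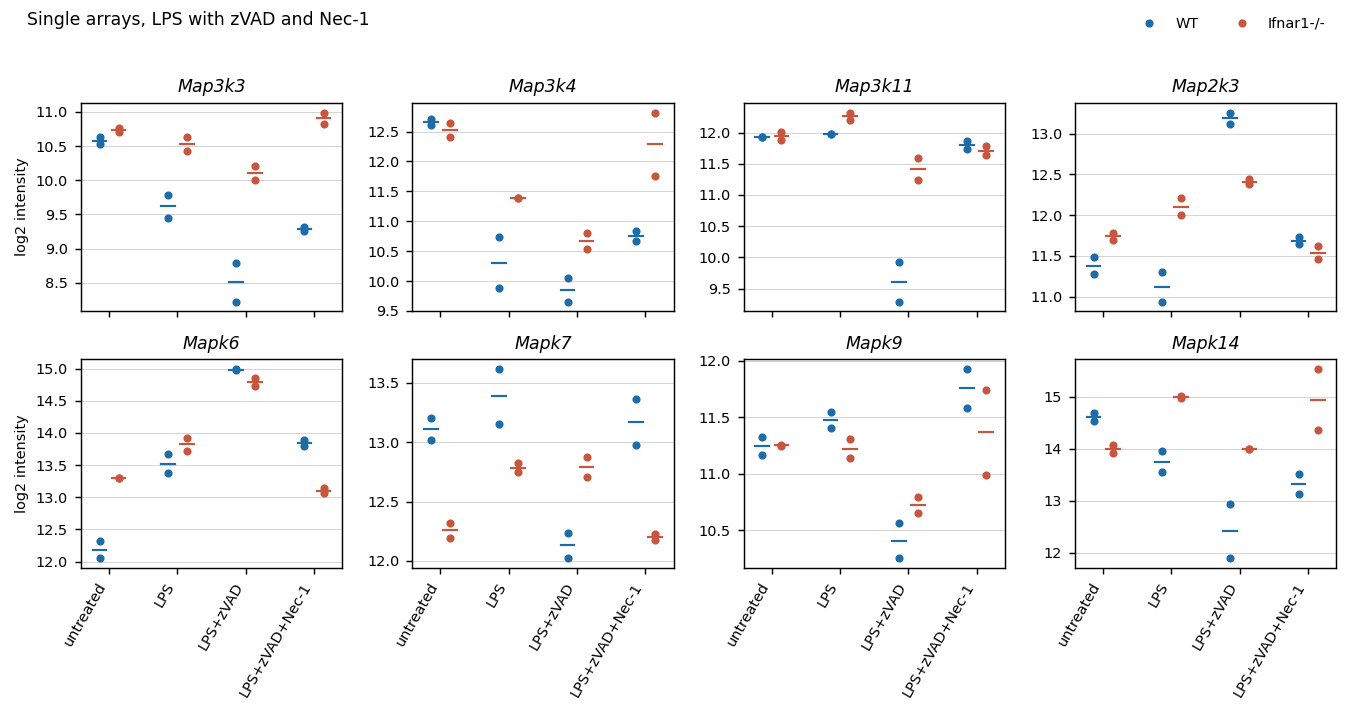
Log2 intensity (y axis, own range in each panel) on each array (points) and the mean of each group (lines, n = 2 arrays) in untreated, LPS, LPS+zVAD and LPS+zVAD+Nec-1 cells of WT (blue) and Ifnar1-/- (red) genotype for 8 genes. In WT cells Map2k3 is at 13.11 and 13.26 and Map3k11 at 9.93 and 9.29 with LPS+zVAD, apart from all other arrays drawn.

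In Ifnar1-/- cells LPS+zVAD against LPS called 2 members, Mapk6 (0.97) and Map3k11 (-0.84), where 8.25% of all genes were called, and 6 with the slide as a block, where 19.5% were. Mapk6 lost its call without any 1 of the 4 arrays and Map3k11 without either LPS array or the LPS+zVAD array of replicate 1, and both lost it with the 75th-percentile scaling. From the untreated state, comparisons added after the values were seen, 24 WT genes were called (8 higher, 16 lower, where 50.9% of all genes were) and 14 Ifnar1-/- genes (7 higher, 7 lower, where 28.2% were). 11 genes were shared, 45.8% of the WT list and 78.6% of the Ifnar1-/- list. The overlap over all genes was not counted here either, so these shares do not set the members apart. The Ifnar1-/- count was 9 without the untreated array of replicate 2 and 8 without the LPS+zVAD array of replicate 1. The difference between genotypes in the LPS+zVAD change was called for 10 members, 5 higher and 5 lower, where 16.1% of all genes were called.

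Mapk14 (p38α) was 14.54 and 14.70 untreated and 12.94 and 11.90 with LPS+zVAD in WT cells, and 13.92 and 14.07 against 14.001 and 13.996 in Ifnar1-/- cells. The WT LPS+zVAD arrays were apart from one another but both were below all Ifnar1-/- arrays. The change was -2.2 in WT cells, and the genotypes differed by 2.2 (SE 0.57, limma adjusted p = 0.0116). Map3k11 was 11.93 and 11.92 untreated in WT and 11.88 and 12.01 in Ifnar1-/- cells, where it reached 11.25 and 11.59 with LPS+zVAD. The genotypes differed by 1.79 (SE 0.29, adjusted p = 0.00045). Mapk7 (1.51), Map3k3 (1.44) and Map2k7 (1.36) also differed in this direction. The Map2k7 call was lost in 10 of 17 alternatives, with a value down to 0.61.

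Differing in the other direction were Map2k3 (-1.13, adjusted p = 0.00155), Mapk6 (-1.31), Map2k4 (-1.29), Map2k1 (-0.98) and Map3k5 (-1.64). Map2k3 was 11.79 and 11.69 untreated and 12.39 and 12.44 with LPS+zVAD in Ifnar1-/- cells, so it rose by 0.67 there and by 1.80 in WT cells. The other probe of Map3k5 showed 0.92, of opposite sign, and the Map3k5 call was lost in 9 of 17 alternatives. Mapkapk2 (2.11 in WT and 2.67 in Ifnar1-/- cells) and Map3k8 (2.80 and 2.79) rose in both, and neither difference passed (adjusted p = 0.662 and 0.994). Without the WT LPS+zVAD array of replicate 2, 6 genes were called in place of 10.

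**Figure D5:**
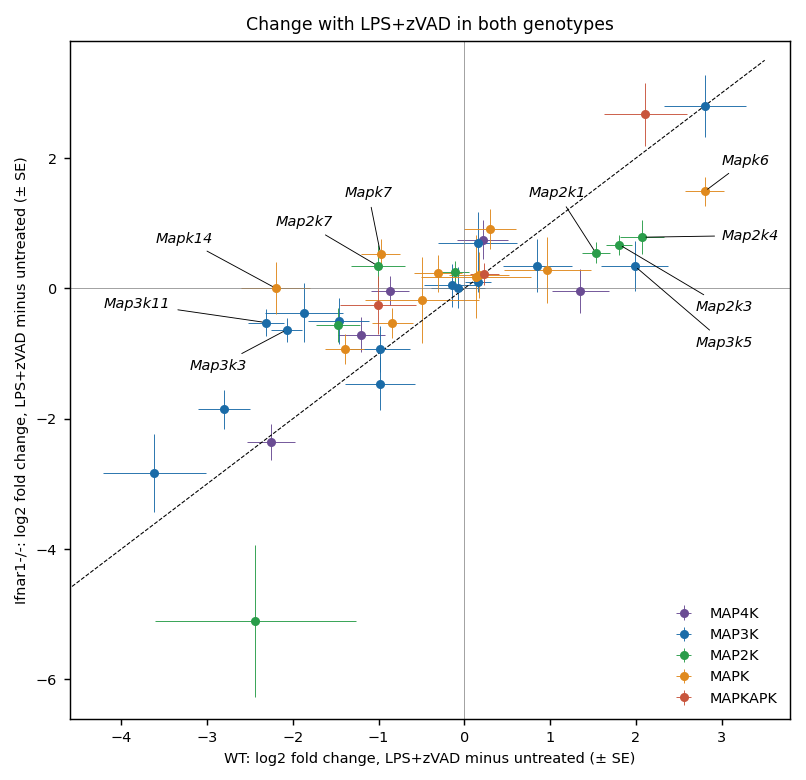
Log2 fold change with LPS+zVAD against untreated cells in WT (x axis) and Ifnar1-/- macrophages (y axis) for 41 tested kinases coloured by tier (points, limma estimates; bars, SE; dashed line, equal change). Named genes are the 10 whose change differed between genotypes, and Mapk14 lies at -2.2 on the x axis and near 0 on the y axis.

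Level differences between genotypes cannot be told apart from slide differences, and the counts here carry that limit. Untreated cells had 4 members called, where 8.73% of all genes were called. Mapk15 (1.5), Map4k1 (1.21) and Mapk6 (1.12) were higher and Mapk7 (-0.85) lower in Ifnar1-/- cells. Mapk15 is dim, and its probe was well above background on 31 of the 32 arrays. Leaving out any of the 4 untreated arrays left 1 or 2 calls. With LPS+zVAD 15 were called, 11 higher and 4 lower in Ifnar1-/- cells, where 37.4% of all genes were called, or 7 higher and 5 lower with the 75th-percentile scaling. Map2k7 (2.22), Map3k11 (1.81), Map3k3 (1.60) and Mapk14 (1.58) were the largest, and Map3k8 (-1.23), Map2k4 (-1.18), Map2k3 (-0.77) and Map2k1 (-0.73) were lower. Ifnar1-/- cells with IFNβ+zVAD+Nec-1, compared with untreated after the values were seen, had 2 called (1.76% of all genes), Map3k6 (1.94, adjusted p = 0.0382) and Map4k1 (-1.22, adjusted p = 0.0248), and without any 1 of the arrays none was.

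Genes around the cascade were described from lists of upstream kinases, adaptors and downstream kinases. With LPS in WT cells 2 of 11 tested upstream kinases rose and 2 fell (Mink1, -2.45), 6 of 19 adaptors, scaffolds and inhibitors rose and 5 fell, and 2 of 7 downstream kinases rose and 4 fell, where 41.2% of all genes were called in either direction. The largest were Gadd45b, an activator of MEKK4 (3.66), and Mknk2, a kinase of the translation factor eIF4E (-3.99). With LPS+zVAD against LPS, 1 upstream kinase rose and 4 fell, 6 adaptors rose and 3 fell, and 4 downstream kinases rose and 2 fell, where 34.6% of all genes were called. Gadd45g rose by 3.54, Mknk2 by 4.14, Rps6ka2 by 2.92 and Zak, a stress-sensing MAP3K, by 2.02, whereas Rps6ka1 was -2.56. The genotypes differed in the LPS+zVAD change by 2.6 for Rps6ka1 and -2.02 for Gadd45g. Zfp36, whose protein binds cytokine mRNA and is inactivated by MK2, rose by 2.53 with LPS and 2.14 with IFNβ in WT cells, and its LPS value in Ifnar1-/- cells was 0.32, which did not pass, and the difference did not pass either (adjusted p = 0.101). With LPS+zVAD against LPS Zfp36 rose by 1.59 in WT and 2.01 in Ifnar1-/- cells. Its level with LPS+zVAD was lower in Ifnar1-/- than in WT cells (-1.76, adjusted p = 0.0173), and the difference in the change from untreated was -1.79 and did not pass (adjusted p = 0.134).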

How the data were processed

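RNA of 32 macrophage samples was hybridised to one-colour Agilent arrays. The deposited scanner files hold the intensity of each probe, extracted with Feature Extraction 11.5.1.1 per the headers of these files. The authors' deposited series-wide table holds log2 values, used here as an alternative. The authors kept probes above background on at least 50% of arrays, quantile-normalised background-subtracted values, removed probes of low-expressed genes by a threshold not given in the sources used here, and tested with genotype and treatment in the design. Their processing notes name limma. These steps, without the removal of low-expressed genes, were run here with R 4.3.3, limma 3.58.1 and the data.table package (version 1.17.8). Outlier spots were left out. Of 55681 probes, 33140 carried a gene symbol, and 21465 of these passed the background filter and were kept. The brightest probe stood for each of 16037 genes. A fit of 16 groups with 16 residual degrees of freedom gave each comparison, with Benjamini-Hochberg adjustment over all genes. The 2 arrays of a group limit the precision. An outlier spot left 1 array for Map3k6 in WT zVAD and for Map3k12 in Ifnar1-/- LPS+zVAD+Nec-1, and both were fitted without it.

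Groups came from the labels. Replicate numbers mark slides, and arrays of a slide deviated together (all 28 pairs in each genotype correlated above 0.1, WT 0.32 to 0.67, Ifnar1-/- 0.17 to 0.57), so a slide block was an alternative. Others were a 75th-percentile scaling, normexp correction with an offset of 50, no filter, a filter on all 32 arrays, mean of probes, the authors' processed values, only the arrays compared, omission of the Ifnar1-/- LPS+zVAD+Nec-1 pair, and each array left out. The rule for named genes took at most 12 called members a comparison, the 6 largest rises and the 6 largest falls; others are given as counts, or named after their values were seen. The members, gene lists and marker lists were chosen with earlier results of these data known, and 4 comparisons were added after values were seen. The fit was also run on simulated arrays with independent noise and no slide effect. That run therefore does not test the fit on arrays of a slide that deviate together. A member and a gene of the upstream kinase list are counted but not reported here by name or drawn. Doses differ between the sources and are not given. Coordinates of probes are mm9, and promoters are from RefSeq on GRCm38.p6, and the 2 builds were not mixed.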

Additional observations from a re-analysis of the deposited data

Results flagged for a closer look

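The change with treatment differed between genotypes, by a limma interaction test, for 17 results. With LPS it was Map2k1 (log2 difference of changes, Ifnar1-/- minus WT, -1.05). With IFNβ the differences were Mapk9 (-1.88), Map2k1 (-1.43), Mapk6 (-1.10), Map4k5 (1.19), Mapk3 (1.26) and Map2k5 (1.29). With LPS+zVAD they were Map3k5 (-1.64), Mapk6 (-1.31), Map2k4 (-1.29), Map2k3 (-1.13) and Map2k1 (-0.98) in one direction and Map2k7 (1.36), Map3k3 (1.44), Mapk7 (1.51), Map3k11 (1.79) and Mapk14 (2.2) in the other. The causes of these differences were not tested. Groups of 2 arrays are too small for a test of single outlying arrays.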

How the results depend on the processing

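None of the 270 values called, over the members and the listed pathway genes, changed sign under an alternative that tested it. Of 14 comparisons fixed and 4 added, the number of members called moved by over 1.5 times as follows. With the 75th-percentile scaling it was 13 for WT IFNβ, 1 for Ifnar1-/- LPS+zVAD against LPS, 2 for the genotype difference in the LPS change and 1 for untreated Ifnar1-/- against WT. In the same order, 4730, 962, 999 and 940 of 16037 genes were called. With the slide as a replicate block, which pairs the arrays of a slide, it was 14 for Nec-1, 6 for Ifnar1-/- LPS+zVAD against LPS, 11 and 18 for the genotype differences in the LPS and IFNβ changes, and 7 and 23 for Ifnar1-/- against WT untreated and with LPS+zVAD. Each slide holds 1 genotype, so for these last 2 counts the block takes slide spread out of the error of a difference between slides, and they are too high as counts for the genotypes. The block lost none of the calls. With only the arrays compared it was 9 for WT IFNβ, 3 for LPS+zVAD against LPS, 0 for Nec-1, 4 for Ifnar1-/- LPS+zVAD against LPS, 2 for untreated cells and 1 for Ifnar1-/- IFNβ+zVAD+Nec-1. Over all 16037 genes, the counts in that order were 4065, 1719, 0, 2058, 895 and 61. The genotype difference in the LPS change was 4 with normexp, 3 with the filter on all 32 arrays, 2 with the mean of probes and 4 without the Ifnar1-/- LPS+zVAD+Nec-1 pair. The untreated genotype count was 2 with the authors' table, and the Ifnar1-/- IFNβ+zVAD+Nec-1 count was 1 with no filter. The causes were not tested, except that fewer arrays enter the fit on only the arrays compared.

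Leaving out 1 array at a time gave 7 to 21 calls for WT IFNβ, 7 to 12 for WT LPS+zVAD against LPS, 7 to 8 for Ifnar1-/- LPS, 0 to 2 for Ifnar1-/- LPS+zVAD against LPS, 0 to 7 for the genotype difference with LPS, 6 to 11 for that with LPS+zVAD, 2 to 6 for that with IFNβ, 1 to 2 for untreated Ifnar1-/- against WT, 8 to 12 for Ifnar1-/- LPS+zVAD against untreated and 0 to 0 for Ifnar1-/- IFNβ+zVAD+Nec-1. A lone array left in a group is assumed to vary like the other groups. The 75th-percentile scaling moved the median log2 change of all genes, from -0.08 to 0.08 for WT LPS, -0.17 to -0.02 for WT IFNβ, -0.04 to 0.08 for LPS+zVAD against LPS, 0.02 to -0.09 for Nec-1, 0.09 to -0.07 for the genotype difference with LPS+zVAD, 0.13 to -0.13 for Ifnar1-/- against WT with LPS+zVAD and -0.15 to 0.12 for WT LPS+zVAD against untreated. Map2k6, Map3k12, Mapk12 and Map3k10 are dim, and signal over background limits their values. Mapk15 and Mapk8 were well above background on 31 and 30 of the 32 arrays, with mean log2 intensities of 6.21 and 6.01. Map2k7, at a mean of 6.36, was so on all 32.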
